A study of Homo sapiens with 23 samples.

Results

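The genes described here are 32 human genes that are known as targets held down by the repressor BCL6. They form a list given by name, with no measured value in its rule, but chosen with earlier results of these data known. The genes were followed through all 9 groups of an RNA-seq study of SUDHL5. This is an established human line grown from a diffuse large B-cell lymphoma whose cells resemble germinal centre B cells. Of the 32 genes, 25 passed the filter on low counts and were tested, among 17743 genes tested in all and 58592 genes with a row. The other 7 were at or near 0 counts and are described at the end.

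BCL6 is a zinc finger protein that binds DNA and brings other proteins to its targets through its BTB domain, which holds corepressors such as NCOR1 and BCOR. In germinal centre B cells it holds down genes of activation, of plasma cell differentiation, of cytokine signalling and of the DNA damage checkpoint, while the cells divide fast and mutate their antibody genes. Many lymphomas of germinal centre type depend on it. CDK-TCIP1 is a bivalent molecule that binds the BTB domain of BCL6 with one end and the kinase CDK9, which releases paused RNA polymerase, with the other.

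Cells received CDK-TCIP1 for 2 h at 10 nM (2 libraries), 30 nM (4 libraries) or 100 nM (3 libraries), or for 4 h at 30 nM (3 libraries). The comparison compounds Neg1 and Neg2 were given at 30 nM for 2 h and for 4 h, with 2 libraries for each compound and time. What Neg1 and Neg2 lack relative to CDK-TCIP1 is not stated in the labels. Vehicle (0.1% DMSO, present in every group) had 3 libraries, all harvested at 4 h, so any 2 h group set against DMSO differs from it in both time and compound. All cells were of 1 line. Nothing in the labels tells whether the replicates came from separate cultures, and the p-values therefore reflect the spread of these libraries alone, which may be technical.

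The libraries held 17396484 to 26373153 estimated counts. Each of the 6 B cell markers was expressed, with a summed level of 1796 to 2570 CPM (counts scaled to library size), and the 6 germinal centre markers summed to 1031 to 1252 CPM. Markers of other cells were near 0, with HBB at 0 in every library, except for TRAC among the T and NK cell genes (21.6 to 66.7 CPM). CD3D, CD3E and CD3G stayed at or under 2.75 CPM. The summed T and NK cell level was 24.3 to 25.7 CPM at 30 nM for 4 h against 60.3 to 64.2 CPM in DMSO, and the summed B cell level 1796 to 1968 CPM against 2151 to 2259 CPM; their part in the results below was not tested. Since these are bulk samples, fewer cells of a kind and less RNA per cell cannot be told apart, and every fold change is relative to the bulk of genes.

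The BCL6 gene itself checks how the repressor's own mRNA moved. BCL6 stood at 410, 393 and 400 CPM in DMSO and at 338, 335 and 352 CPM after 30 nM CDK-TCIP1 for 4 h, so the groups did not overlap. It fell by 0.23 on the log2 scale against DMSO (SE 0.05, edgeR adjusted p = 0.000269) and by 0.21 against Neg1 (SE 0.05, adjusted p = 0.00242), while the difference from Neg2 was -0.07 (SE 0.05, adjusted p = 0.335). At 2 h it fell by 0.26, 0.27 and 0.26 against DMSO at 10, 30 and 100 nM.

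BCL6 also represses its own gene, and its promoter shows what a binding motif looks like. RefSeq promoter windows of 300 bases (250 before to 50 after the start, GRCh38.p14) were searched on both strands for the BCL6 motif TTCCTAGAA and for the looser TTCNNNGAA, of which the first is a special case. The sequences below are shown because they carry those letters, with the match in capitals. The upper one spans chr3:187745477-187745506 and the lower one chr3:187745419-187745448, both on the minus strand.
BCL6, 38 to 9 bases before the start: gaagctcaaaTTCCGAGAAttgagctctgt
BCL6, 21 to 50 bases after the start: tggtgatgcaagaagtTTCTAGGAAaggcc
The lower match is TTCCTAGAA read on the other strand, and it starts 37 bases after the start site. The looser motif occurred 4 times in the BCL6 window, from -28 to 37. Of the 32 genes, 24 had an entry, and 0 of these held either motif in the window, against 0.403% and 7.88% of all 27305 windows of this length. Where a gene had several listed starts, only the first was searched, and it can lie inside the gene. A window without the letters says nothing about binding elsewhere. IL10RA, which had the largest fall of the tested genes at 100 nM against DMSO, is given as an example. Shown are the 250 bases before its searched start (chr11:117989695-117989944, plus strand). They lie inside the gene (chr11:117986348-118003037), so the bases before its outermost start were not searched.
IL10RA: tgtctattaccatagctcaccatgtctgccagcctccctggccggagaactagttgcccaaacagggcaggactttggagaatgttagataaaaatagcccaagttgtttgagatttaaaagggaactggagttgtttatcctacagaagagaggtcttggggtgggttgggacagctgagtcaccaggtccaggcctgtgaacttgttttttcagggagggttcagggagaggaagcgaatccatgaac
The window of PRDM1, the target best known for its role in plasma cells, is given next to it (chr6:106086086-106086335, plus strand).
PRDM1: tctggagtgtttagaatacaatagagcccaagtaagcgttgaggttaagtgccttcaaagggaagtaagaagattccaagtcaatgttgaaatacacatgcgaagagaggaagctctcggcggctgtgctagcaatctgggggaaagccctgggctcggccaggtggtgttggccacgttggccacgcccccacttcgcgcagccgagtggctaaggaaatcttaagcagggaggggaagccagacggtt

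Before treatment these genes covered a wide range of levels. On the TPM scale, which divides by transcript length and library size, HIF1A was highest in DMSO at 134 ± 10.2 TPM (SD, n = 3), followed by PTPN6 at 132 ± 14.1 and RUNX3 at 106 ± 7.32. HIF1A and PTPN6 did not differ beyond their spread, nor did RUNX3 and SUB1 (103 ± 4.58 TPM). IL10RA stood at 70.7 ± 5.48 TPM and CD69 at 27.2 ± 1.37 TPM, whereas CD80 (1.39 ± 0.206 TPM) and PRDM1 (0.161 ± 0.120 TPM) were the lowest of the tested genes. Thus SUDHL5 cells already expressed many of the genes that BCL6 is known to hold down. The median tested gene of the 25 had an average log2 CPM of 4.57, against 3.08 over all tested genes.

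**Figure D1:**
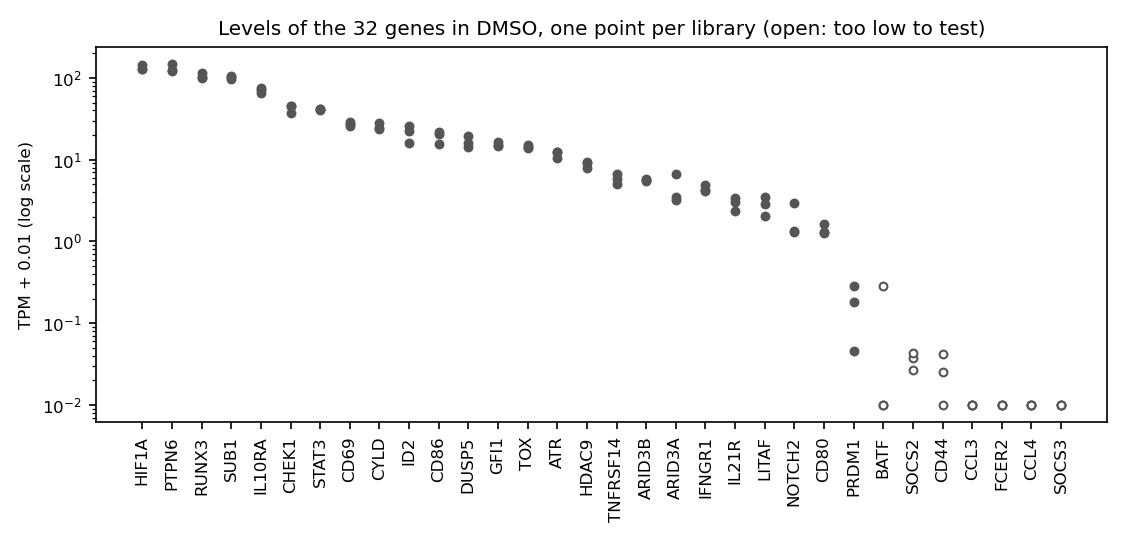
Level of each of the 32 genes in the 3 DMSO libraries, as TPM plus 0.01 on a log axis, 1 point per library and genes ordered by their mean. Filled points mark the 25 tested genes, from HIF1A at 134 TPM to PRDM1 at 0.161 TPM, and open points the 7 that were too low to test.

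At 30 nM and 4 h the genes did not rise as a group. Against DMSO, 5 of the 25 rose (ARID3A, ARID3B, HIF1A, SUB1 and CD69) and 9 fell (RUNX3, GFI1, NOTCH2, IL10RA, IL21R, PTPN6, CYLD, DUSP5 and CHEK1), at an adjusted p under 0.05 in edgeR's quasi-likelihood test. Of all tested genes 36.8% were called in that comparison, 17.5% higher and 19.3% lower. The median log2 fold change was -0.14 over the 25 genes and 0.03 over all genes. Against Neg1, 5 rose and 7 fell (31.1% of all genes called, 14.2% higher and 16.9% lower), and against Neg2, 6 rose and 6 fell (31.1%, as 14.4% and 16.8%). These comparisons share the CDK-TCIP1 libraries.

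Called in the same direction against DMSO, Neg1 and Neg2 at 4 h were 4 genes that rose, CD69, ARID3A, ARID3B and HIF1A, and 5 that fell, RUNX3, GFI1, NOTCH2, IL10RA and PTPN6. Over all tested genes the same held for 24.2%, 10.5% higher and 13.7% lower. At 2 h, 2 genes rose against both Neg1 and Neg2 (CD69 and TOX) and 10 fell (ID2, RUNX3, GFI1, HDAC9, IFNGR1, IL10RA, IL21R, PTPN6, DUSP5 and CHEK1). The background at 2 h was 21.9% of all genes, 10% higher and 11.9% lower. Against Neg1 alone at 2 h, 4 rose and 10 fell (27.8% of all genes called, 13.6% higher and 14.2% lower), and against Neg2 alone, 2 rose and 11 fell (30.5%, as 14.8% and 15.7%). The 2 h median of the 25 genes was -0.27 against Neg1 and -0.26 against Neg2, where all genes had 0.02 and 0.03. CD69 was the one gene called higher at both times, and RUNX3, GFI1, IL10RA and PTPN6 were called lower at both.

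**Figure D2:**
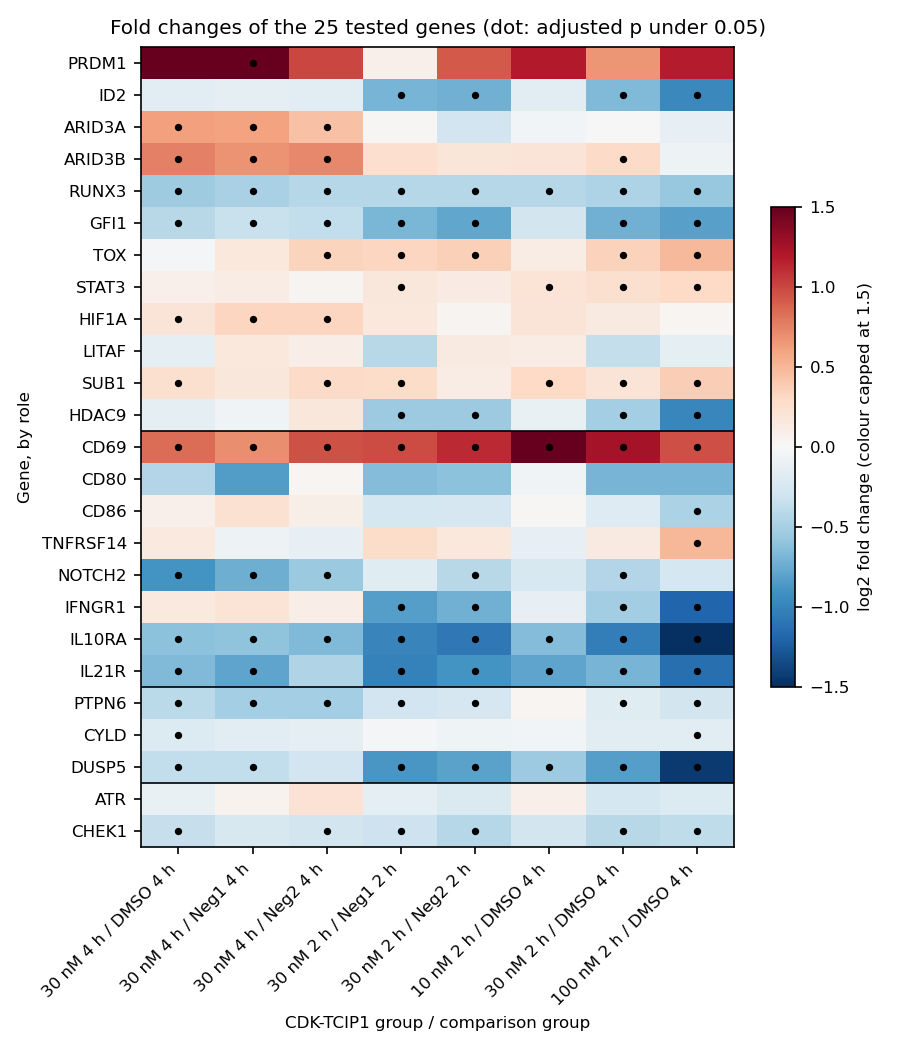
Log2 fold change of the 25 tested genes (rows, by role) in 8 comparisons (columns), in red where CDK-TCIP1 was higher and in blue where it was lower, with a dot at an adjusted p under 0.05. CD69 is red with a dot in every column, and IL10RA and RUNX3 are blue with a dot in every column.

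Among the transcription and differentiation factors, 12 of 13 were tested, and 4 rose and 2 fell at 4 h against DMSO. ARID3B, an AT-rich interaction domain DNA-binding protein (GRCh38 chr15:74541177-74598131, plus strand), stood at 18.0, 17.9 and 19.0 CPM in DMSO, 20.1 and 18.5 with Neg1, 17.9 and 19.6 with Neg2, and 33.4, 30.1 and 29 CPM after 30 nM for 4 h. Each 30 nM library at 4 h was above every control library. ARID3B rose by 0.75 (SE 0.10, edgeR adjusted p = 2.4e-06) against DMSO, 0.68 against Neg1 and 0.72 against Neg2. At 2 h its values were 0.25 against Neg1 and 0.19 against Neg2, neither of them called. ARID3A, its paralogue and an activator of immunoglobulin heavy chain transcription, stood at 9.84, 9.99 and 10.1 CPM in DMSO and at 18.2, 13.3 and 14.3 CPM at 30 nM for 4 h. It rose by 0.61 (SE 0.13, edgeR adjusted p = 0.000714), 0.61 and 0.44 against DMSO, Neg1 and Neg2. These calls ended when counts were rebuilt from length-scaled TPM (adjusted p = 0.352, 0.763 and 0.876). The call against Neg1 ended without Neg1 4 h replicate 2 (adjusted p = 0.0736), and that against Neg2 without 30 nM 4 h replicate 1 (0.169) or either Neg2 4 h library (0.107 and 0.203) and with no low-count filter (0.0805).

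HIF1A, the oxygen-regulated subunit of hypoxia-inducible factor, moved little. It stood at 384, 425 and 382 CPM in DMSO, 351 and 378 with Neg1, 367 and 361 with Neg2, and 461, 440 and 464 CPM at 30 nM for 4 h. No control library at 4 h reached the lowest of the 30 nM libraries. HIF1A rose by 0.32 against both Neg1 (SE 0.07, edgeR adjusted p = 0.00113) and Neg2, and by 0.20 against DMSO. The call against DMSO ended without DMSO replicate 1 (adjusted p = 0.113), DMSO replicate 3 (0.115) or 30 nM 4 h replicate 3 (0.0528). HIF1A overlaps an unnamed gene on the same strand, so its counts are less certain. SUB1, a transcriptional coactivator, was called higher at 2 h against Neg1 but not against Neg2, with 0.19 as the mean of both. That 2 h call ended with length-scaled TPM (adjusted p = 0.134) and without Neg1 2 h replicate 1, where the value was 0.21. At 4 h SUB1 rose against DMSO (0.24) and Neg2 (0.28) and had 0.17 against Neg1 (edgeR adjusted p = 0.0912). Its call against DMSO ended with length-scaled TPM (adjusted p = 0.846) and that against Neg2 without Neg2 4 h replicate 1 (0.0893).

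RUNX3, a Runt-domain factor of lymphocyte development (GRCh38 chr1:24899511-24965121, minus strand), fell by a similar amount at both times. It stood at 306, 300 and 297 CPM in DMSO and at 227, 204 and 194 CPM at 30 nM for 4 h. Neg1 at 4 h gave 287 and 297 CPM and Neg2 gave 280 and 279 CPM. The lowest control library was above the highest 30 nM library. RUNX3 fell by 0.53 (SE 0.06, edgeR adjusted p = 2.27e-07), 0.49 and 0.42 against DMSO, Neg1 and Neg2 at 4 h, and by 0.43 against each of Neg1 and Neg2 at 2 h. GFI1, a zinc finger repressor of blood cell development, stood at 24.8, 29.1 and 28.3 CPM in DMSO, 25.8 and 25.9 with Neg1 and 27.4 and 25.9 with Neg2 at 4 h. With 30 nM CDK-TCIP1 it was 17, 15.5, 17.1 and 16.8 CPM at 2 h and 19.4, 17.7 and 24.7 CPM at 4 h. The 2 h libraries lay together and below all controls, and at 4 h replicate 3 came close to the controls. GFI1 fell by 0.69 (SE 0.11, edgeR adjusted p = 4.67e-05) and 0.77 against Neg1 and Neg2 at 2 h, and by 0.41, 0.33 and 0.37 against DMSO, Neg1 and Neg2 at 4 h. The 4 h call against Neg1 ended in a fit of only the groups compared (adjusted p = 0.0656) and without 30 nM replicate 1 or 2 (0.106 and 0.176) or either Neg1 library (0.129 and 0.153). The 4 h call against Neg2 ended without 30 nM replicate 1 or 2 (0.0593 and 0.1) or Neg2 replicate 1 (0.114). With length-scaled TPM, GFI1 was called in none of these 5 comparisons (adjusted p = 0.104 to 0.36). With protein-coding transcripts only, its 4 h calls against Neg1 and Neg2 also ended (adjusted p = 0.0745 and 0.053).

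ID2, an inhibitor of E-protein transcription factors, and HDAC9, a class IIa histone deacetylase, fell at 2 h. ID2 stood at 9.95, 12.4, 8.48 and 7.44 CPM at 30 nM for 2 h, against 14.4 and 16.6 with Neg1 and 16.0 and 15.5 with Neg2. It fell by 0.69 (SE 0.19, edgeR adjusted p = 0.00625) and 0.72, and the call against Neg1 ended without Neg1 2 h replicate 2 (adjusted p = 0.103). HDAC9 stood at 16.6, 16.4, 16.7 and 16.2 CPM, against 22.6 and 25.4 with Neg1 and 24.9 and 23.2 with Neg2. It fell by 0.54 (SE 0.11, edgeR adjusted p = 0.000346) and 0.55, calls that ended with length-scaled TPM (adjusted p = 0.394 and 0.0753). Length-scaled TPM also ended the call of ID2 against Neg1 (adjusted p = 0.0815). None of the 30 nM libraries at 2 h reached a matched control for either gene. At 4 h ID2 had -0.18 against DMSO and HDAC9 -0.15, neither called. TOX, an HMG-box nuclear factor, rose at 2 h by 0.32 and 0.35 against Neg1 and Neg2, at 56.2, 58.2, 59.9 and 60.4 CPM against 43.6 to 50.5 CPM with either compound. The calls ended without Neg1 2 h replicate 2 (adjusted p = 0.265) or Neg2 2 h replicate 2 (0.0907), and that against Neg1 with length-scaled TPM (0.0711). At 4 h TOX rose against Neg2 alone, a call that ended with length-scaled TPM (adjusted p = 0.0661) or without 30 nM 4 h replicate 3 (0.0509). It also ended without Neg2 4 h replicate 2, where the value was 0.25. TOX overlaps TOX-DT on the opposite strand, whose reads cannot be told apart here since the strand setting is not given. STAT3, which transmits cytokine signals to the nucleus, rose against Neg1 at 2 h (0.17) and had 0.13 against Neg2 (edgeR adjusted p = 0.054). The call against Neg1 ended without either Neg1 2 h library (adjusted p = 0.149 and 0.0883) and without the low-count filter (0.146). LITAF was not called in any of these comparisons, with 0.16 and 0.10 against Neg1 and Neg2 at 4 h and an SE of 0.32 in both.

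PRDM1 encodes BLIMP1, the factor that drives plasma cell formation, and is the textbook BCL6 target. It stayed at very low counts: 9, 7 and 3 in the DMSO libraries, 0 and 1 with Neg1, 3 and 15 with Neg2, and 19, 11 and 26 after 30 nM CDK-TCIP1 for 4 h. The 30 nM libraries were above the DMSO and Neg1 libraries, and 1 of the 2 Neg2 libraries lay among them. Summed over libraries and scaled to depth, PRDM1 was 2.98 times the DMSO level (95% interval 1.75 to 5.32), 2.08 times the Neg2 level (1.21 to 3.77) and 31.9 times the Neg1 level (5.50 to 1283), with intervals that cover counting error only. In the test over libraries it was called against Neg1 alone (edgeR adjusted p = 0.00328), with 0.0905 against DMSO and 0.377 against Neg2. The call against Neg1 ended without Neg1 4 h replicate 1 (adjusted p = 0.0575). The Neg1 mean was 0.427 CPM at 2 h and 0.026 CPM at 4 h. After 2 h of CDK-TCIP1, PRDM1 was at 231%, 163% and 232% of its DMSO mean at 10, 30 and 100 nM, none of them called. Neg1 and Neg2 at 2 h were at 151% and 83.8%. PRDM1 overlaps ATG5 on the opposite strand.

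Of the 10 surface and receptor genes 8 were tested, and CD69 was the one that rose at 30 nM, at 2 h and at 4 h. CD69, a C-type lectin that appears on the surface of activated lymphocytes (chr12:9752486-9760901, minus strand), was at 26.4, 28.3 and 28.3 CPM in DMSO and at 45.3, 48.4 and 54.3 CPM after 30 nM for 4 h. At 4 h Neg1 gave 28.2 and 32.5 CPM and Neg2 24.7 and 26.3 CPM. All 3 CDK-TCIP1 libraries exceeded all controls. CD69 rose by 0.84 (SE 0.11, edgeR adjusted p = 1.1e-06) against DMSO, 0.70 against Neg1 and 0.95 against Neg2. At 2 h the 30 nM libraries held 58.1, 71.0, 71.7 and 62.2 CPM, against 31.8 and 34.7 with Neg1 and 30.0 and 30.4 with Neg2. The 2 h rise was 0.98 (SE 0.12, edgeR adjusted p = 8.99e-07) against Neg1 and 1.12 against Neg2.

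IL10RA, the ligand-binding chain of the interleukin-10 receptor (chr11:117986348-118003037, plus strand), went the other way. It stood at 138, 142 and 126 CPM in DMSO, and at 4 h at 134 and 135 with Neg1, 139 and 141 with Neg2, and 92.1, 85.2 and 87.4 CPM with 30 nM CDK-TCIP1. At 2 h CDK-TCIP1 gave 68.0, 68.8, 64.3 and 62.7 CPM, against 136 and 127 with Neg1 and 133 and 145 with Neg2. No CDK-TCIP1 library reached any control library. IL10RA fell by 0.99 (SE 0.09, edgeR adjusted p = 1.27e-08) and 1.07 against Neg1 and Neg2 at 2 h, and by 0.61 and 0.67 at 4 h.

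The other cytokine receptors fell at 2 h as well. IFNGR1, the ligand-binding chain of the interferon-gamma receptor, was at 4.83, 4.71, 5.46 and 3.87 CPM at 30 nM for 2 h, against 8.24 and 8.44 with Neg1 and 8.35 and 7.25 with Neg2. It fell by 0.82 (SE 0.17, edgeR adjusted p = 0.000712) and 0.72, and the call against Neg2 ended without Neg2 2 h replicate 1 (adjusted p = 0.0565). By 4 h IFNGR1 was at 6.55, 7.22 and 8.75 CPM, within the range of the DMSO, Neg1 and Neg2 libraries but for the highest, and was not called. IL21R, the receptor of a cytokine of T follicular helper cells, fell by 1.01 (SE 0.20, edgeR adjusted p = 0.000364) and 0.90 at 2 h, from 9.58 and 10.5 CPM with Neg1 and 8.85 and 9.63 with Neg2 to 6.70, 4.39, 4.78 and 3.87 CPM. The groups did not overlap. At 4 h it fell against DMSO (0.66) and Neg1 (0.79), the latter call ending without Neg1 replicate 2 (adjusted p = 0.241), and had -0.46 against Neg2 (edgeR adjusted p = 0.113).

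NOTCH2, the receptor that directs marginal zone B cell fate, fell at 4 h. It stood at 11.8, 12.2 and 12.6 CPM in DMSO, 11 and 10.8 with Neg1, 10.7 and 8.55 with Neg2, and 6.32, 5.98 and 7.34 CPM with 30 nM CDK-TCIP1. All 3 CDK-TCIP1 libraries were below all controls. NOTCH2 fell by 0.90 (SE 0.14, edgeR adjusted p = 1.24e-05), 0.74 and 0.56 against DMSO, Neg1 and Neg2. The call against Neg2 ended without Neg2 4 h replicate 1 (adjusted p = 0.162), and with length-scaled TPM those against Neg1 and Neg2 ended (0.146 and 0.343). At 2 h NOTCH2 was called lower against Neg2 but not against Neg1, with -0.30 as the mean of both. That 2 h call ended with length-scaled TPM (adjusted p = 0.751) and without 30 nM 2 h replicate 2 (0.0941) or 4 (0.0536). It also ended without Neg2 2 h replicate 1, where the value was -0.23. The costimulatory ligands CD80 and CD86 and the receptor TNFRSF14 were not called at 30 nM at either time. CD86 had 0.08, 0.23 and 0.08 at 4 h and -0.27 and -0.26 at 2 h, and CD80, which overlaps TIMMDC1 on the opposite strand, had SEs of 0.41 to 0.50 on its fold changes at 30 nM.

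**Figure D3:**
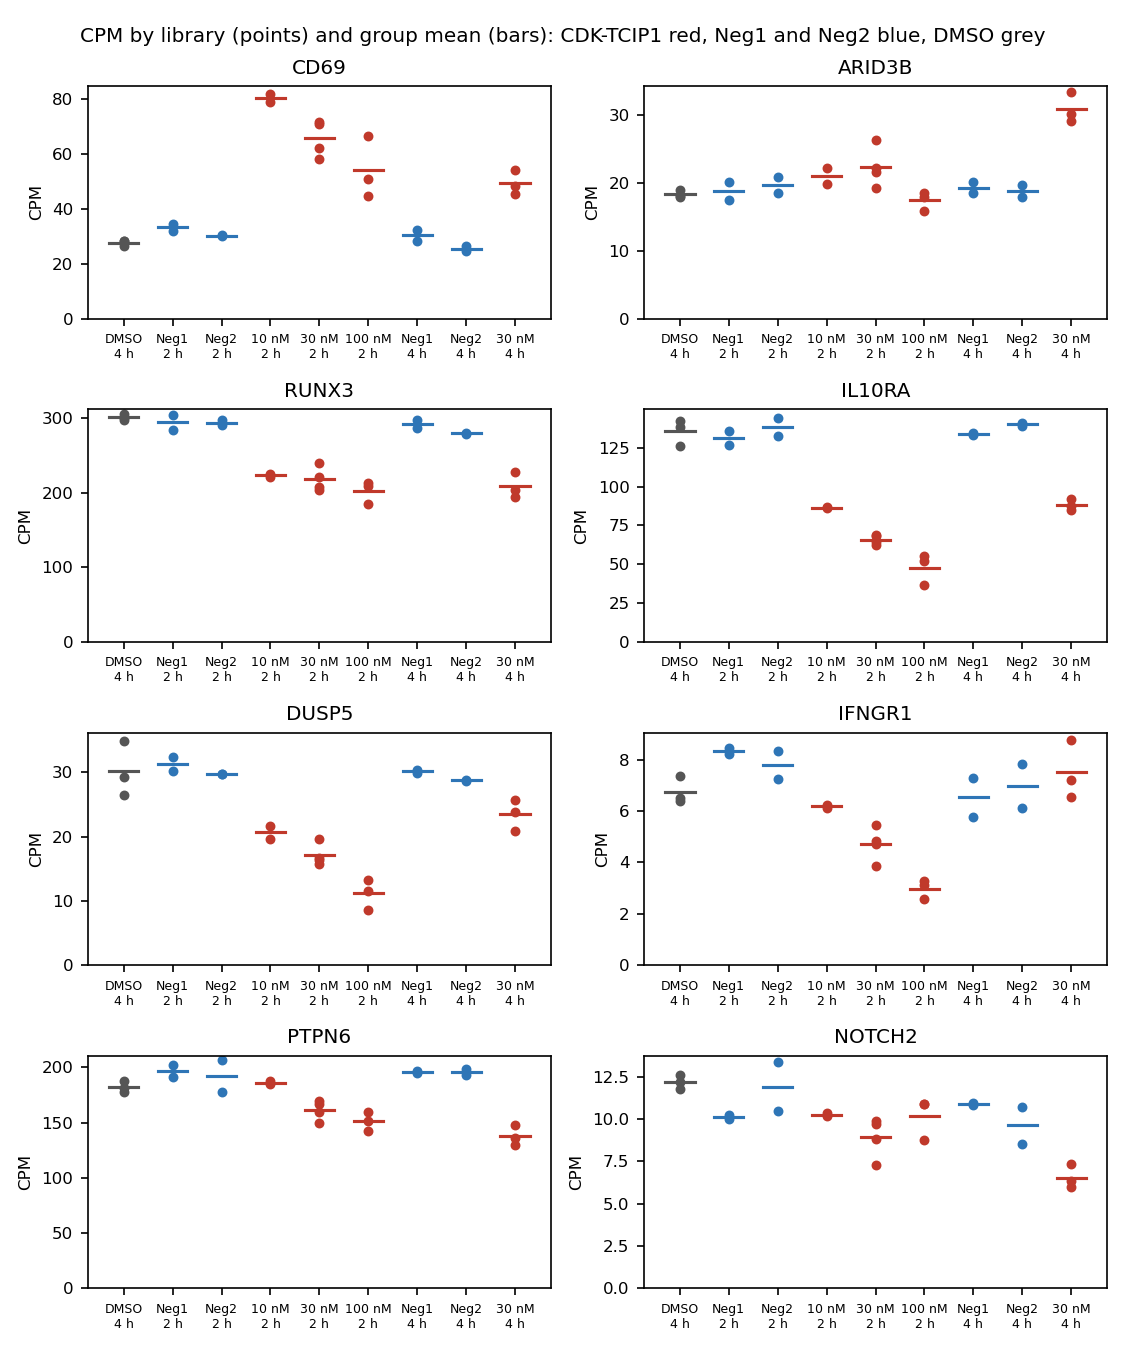
CPM in each library (points) with the group mean (bars) for 8 genes across the 9 groups, from an axis that starts at 0, with CDK-TCIP1 in red, Neg1 and Neg2 in blue and DMSO in grey. CD69 is above all controls in every CDK-TCIP1 group, IL10RA, RUNX3 and DUSP5 are below all controls in every CDK-TCIP1 group, and ARID3B is highest at 30 nM for 4 h.

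Of the genes that brake signalling 3 of 5 were tested, and each was lower against DMSO at 4 h. PTPN6, the SHP-1 phosphatase that dampens B cell receptor signals (chr12:6946468-6961316, plus strand), stood at 182, 187 and 178 CPM in DMSO, 197 and 195 with Neg1, 193 and 198 with Neg2, and 148, 130 and 136 CPM at 30 nM for 4 h. The 30 nM libraries all lay below the lowest control library. PTPN6 fell by 0.40 (SE 0.06, edgeR adjusted p = 9.38e-06), 0.51 and 0.51 against DMSO, Neg1 and Neg2. At 2 h it fell by 0.29 and 0.25 against Neg1 and Neg2, the latter call ending without Neg2 2 h replicate 2 (adjusted p = 0.178).

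DUSP5, a nuclear phosphatase that inactivates ERK (chr10:110497838-110511544, plus strand), fell further at 2 h than at 4 h. The 30 nM libraries held 15.8, 19.6, 16.6 and 16.3 CPM, against 30.2 and 32.4 with Neg1 and 29.7 and 29.7 with Neg2. DUSP5 fell by 0.88 (SE 0.12, edgeR adjusted p = 8.51e-06) and 0.80. At 4 h it was at 23.8, 25.7 and 20.8 CPM, still below every DMSO, Neg1 and Neg2 library. The 4 h fall was 0.36 against DMSO and 0.36 against Neg1, and the value against Neg2 was -0.29 (edgeR adjusted p = 0.095). The call against DMSO ended without DMSO replicate 2 (adjusted p = 0.119) or 30 nM 4 h replicate 3 (0.0947), and that against Neg1 without 30 nM replicate 1 or 3 (0.0619 and 0.143) or either Neg1 library (0.12 and 0.16). CYLD, a deubiquitinase that restrains NF-kB and overlaps CYLD-AS1 on the opposite strand, fell by 0.20 against DMSO at 4 h (SE 0.07, edgeR adjusted p = 0.0194), with -0.16 and -0.14 against Neg1 and Neg2, neither called. Its call ended without DMSO replicate 2 (adjusted p = 0.0617) or 30 nM 4 h replicate 2 (0.0614). The DUSP5 call against Neg1 at 4 h also ended with length-scaled TPM (adjusted p = 0.0897) and with protein-coding transcripts only (0.0619).

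The checkpoint kinases ATR and CHEK1 sense and relay DNA damage. CHEK1 fell at 2 h against Neg1 (by 0.31) and Neg2 (by 0.42), at 47.9, 52.0, 48.9 and 45.7 CPM against 56.8 and 63.6 with Neg1 and 69.1 and 61.3 with Neg2. The groups did not overlap, but the call against Neg1 ended without Neg1 2 h replicate 2 (adjusted p = 0.22). At 4 h CHEK1 fell against DMSO (by 0.34) and Neg2 (by 0.28) and had -0.24 against Neg1 (edgeR adjusted p = 0.0565). The 4 h call against Neg2 ended without 30 nM replicate 2 or 3 (adjusted p = 0.15 and 0.0857) or without Neg2 replicate 2 (0.25). With length-scaled TPM the 2 h calls against Neg1 and Neg2 and the 4 h call against Neg2 ended (adjusted p = 0.0801, 0.0577 and 0.138). The last also ended with protein-coding transcripts only (0.111). CHEK1 overlaps STT3A on the same strand, so its counts are less certain. ATR was not called, with -0.12, 0.06 and 0.22 at 4 h against DMSO, Neg1 and Neg2 (SE 0.11, 0.13 and 0.13).

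At 2 h more of the genes went down with dose than up. Against DMSO, at 10 nM 3 genes rose (STAT3, SUB1 and CD69) and 4 fell (RUNX3, IL10RA, IL21R and DUSP5; 13.1% of all genes called, 5.93% higher and 7.12% lower), 5 and 11 at 30 nM (34.3%, as 16.7% and 17.6%), and 5 and 12 at 100 nM (42.6%, as 20.6% and 22%). These 3 comparisons share the DMSO libraries. At 10 nM only the calls of CD69 and IL10RA held in every fit run. Those of RUNX3, SUB1 and IL21R ended with length-scaled TPM (adjusted p = 0.228, 0.317 and 0.0715). Those of STAT3 and DUSP5 ended without DMSO replicate 2 (0.0666 and 0.0508). By the sign of the fitted differences, 12 of the 25 genes (48%) were lower at both steps, from 10 to 30 nM and from 30 to 100 nM, against 29.3% of all tested genes. Another 3 (12%) were higher at both steps (TOX, STAT3 and TNFRSF14), against 29.5%, and 10 had mixed signs. These signs carry no test. Single steps were called for few genes: GFI1, HDAC9 and IL10RA were lower at 30 than at 10 nM (3 lower and 0 higher, with 2.62% of all genes called, 1.82% lower and 0.8% higher), and ARID3B, HDAC9, IFNGR1, IL10RA and DUSP5 were lower at 100 than at 30 nM (5 lower and 0 higher, with 12.9%, as 8.45% lower and 4.44% higher). At unadjusted p under 0.05, 10 of the 25 differed in each step, against 2849 and 4528 of all 17743 genes. DESeq2 called 4 and 7 of the 25, for which no share over all genes is given. All 3 calls between 30 and 10 nM ended without either 10 nM library (adjusted p = 0.0814 to 0.422) or without 30 nM 2 h replicate 4 (0.0641 to 0.0882), and with length-scaled TPM (0.124 to 0.755). Leaving out 30 nM 2 h replicate 1 or 2 ended those of GFI1 and HDAC9 and leaving out replicate 3 that of HDAC9. The 100 nM step held 2 calls, IL10RA and DUSP5, without 100 nM replicate 1, the library farthest from its group mean, and ARID3B also lost its call without 30 nM 2 h replicate 1 (adjusted p = 0.0759).

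Between the ends of the range, 100 against 10 nM, 9 genes were lower (ID2, GFI1, HDAC9, CD69, CD86, IFNGR1, IL10RA, PTPN6 and DUSP5) and 2 higher (TOX and TNFRSF14; 25.1% of all genes called, 14.2% lower and 11% higher), in a comparison added after the data had been seen. IL10RA fell with dose, from 86.8 and 85.9 CPM at 10 nM through 62.7 to 68.8 CPM at 30 nM to 36.5, 55.2 and 51.9 CPM at 100 nM, which were 63.7%, 48.6% and 35.3% of its DMSO mean. No libraries of adjacent doses overlapped. DUSP5 was at 19.7 and 21.7 CPM at 10 nM and at 8.58, 13.3 and 11.6 CPM at 100 nM, 68.5% and 36.9% of DMSO. IFNGR1 was at 6.23 and 6.13 CPM at 10 nM, just below the DMSO libraries (6.40 to 7.36 CPM), and at 2.56, 3.10 and 3.26 CPM at 100 nM, where it fell by 1.18 (SE 0.18, edgeR adjusted p = 4.93e-06) against DMSO. HDAC9 and ID2 gave similar values: at 10 nM they had -0.11 and -0.17 against DMSO, neither called, and at 100 nM they fell by 0.98 and 0.97.

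CD69, unlike TOX, was highest at the lowest dose. It held 78.9 and 82.0 CPM at 10 nM, 58.1 to 71.7 CPM at 30 nM and 44.8, 50.9 and 66.7 CPM at 100 nM, against 26.4 to 28.3 CPM in DMSO. The lowest dose thus gave the highest level, 291% of the DMSO mean, against 238% and 196% at 30 and 100 nM. The 100 nM level was lower than the 10 nM level by 0.57 (SE 0.12, edgeR adjusted p = 0.000623), and the 10 and 100 nM libraries did not overlap. TOX rose with dose (0.38 between 10 and 100 nM, edgeR adjusted p = 0.00592), but without 10 nM replicate 1 its adjusted p was 0.148. TNFRSF14 had 0.63 between 10 and 100 nM (edgeR adjusted p = 0.0203), a call that ended without any of 4 single libraries (both 10 nM libraries and 100 nM replicates 1 and 2, adjusted p = 0.0551 to 0.14).

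RUNX3 showed little further fall over the range. It stood at 225 and 221 CPM at 10 nM, 203 to 240 at 30 nM and 209, 213 and 185 CPM at 100 nM, all under the lowest DMSO library (297 CPM). The difference between 100 and 10 nM was -0.14 (SE 0.07, edgeR adjusted p = 0.167). PTPN6 was not called at 10 nM (0.03 against DMSO, SE 0.07) and fell by 0.18 and 0.27 at 30 and 100 nM.

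**Figure D4:**
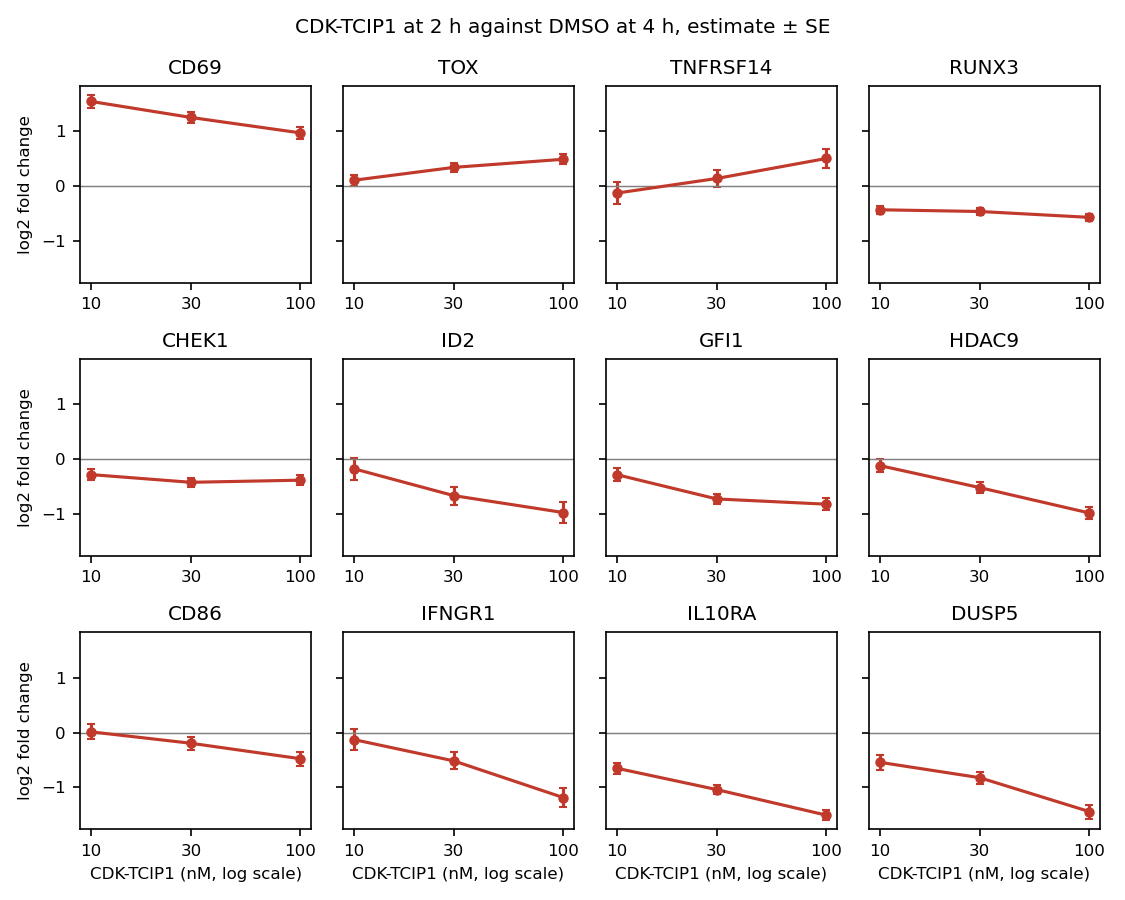
Log2 fold change at 2 h against DMSO at 4 h, with its SE, at 10, 30 and 100 nM CDK-TCIP1 (log axis) for 12 genes. CD69 goes down from 1.54 at 10 nM to 0.97 at 100 nM, IL10RA goes from -0.65 to -1.5, and RUNX3 stays between -0.43 and -0.57.

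Over time at 30 nM, several of the 2 h falls were smaller by 4 h. Between 2 h and 4 h of CDK-TCIP1, 8 genes rose (ID2, ARID3A, ARID3B, GFI1, HDAC9, IFNGR1, IL10RA and DUSP5) and 5 fell (TOX, STAT3, CD69, NOTCH2 and PTPN6), against 21.9% of all genes, 10.3% higher and 11.6% lower. The call of ID2 ended without any of 5 single libraries (30 nM 2 h replicates 1, 3 and 4 and 4 h replicates 1 and 2, adjusted p = 0.054 to 0.242), that of GFI1 without 2 h replicate 2 or 4 h replicate 3 (0.0776 and 0.309) and that of NOTCH2 without 4 h replicate 1 or 2 (0.0578 and 0.0789). Length-scaled TPM ended those of ID2, ARID3A, GFI1, HDAC9, STAT3 and NOTCH2 (adjusted p = 0.128 to 0.849). Neg1 and Neg2 together gave 0 calls of the 25 between the same times with edgeR, and 0 with DESeq2 (0% of all genes with edgeR). At an unadjusted p under 0.05 there were 5 of the 25, against 1394 of all 17743 genes. The mean of TOX went down over that time with both compounds, from 47.0 to 40.9 CPM with Neg1 and from 45.9 to 36.3 CPM with Neg2. Neg1 and Neg2 against DMSO at 4 h likewise gave 0 calls with both tools (0% of all genes with edgeR). At an unadjusted p under 0.05 there were 1 and 4 of the 25 genes, against 770 and 1063 of all 17743 genes. The largest difference of a tested gene between Neg2 and DMSO besides PRDM1 and CD80 was -0.35 for TOX (SE 0.10, edgeR adjusted p = 0.785).

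The test of the difference between the 4 h and the 2 h effect of CDK-TCIP1, each against the mean of Neg1 and Neg2, called 7 of the 25 genes, 6 with a higher and 1 with a lower value at 4 h (12% of all genes called, 5.61% higher and 6.37% lower). IFNGR1 moved from -0.77 at 2 h to 0.15 at 4 h, a difference of 0.92 (SE 0.21, edgeR adjusted p = 0.00441). HDAC9 moved from -0.54 to 0.06, DUSP5 from -0.84 to -0.33 and IL10RA from -1.03 to -0.64. ARID3B moved from 0.22 to 0.70 and ARID3A from -0.13 to 0.52, but with length-scaled TPM the difference for ARID3A turned to -0.075 (adjusted p = 0.968). PTPN6 went further down, from -0.27 to -0.51. Length-scaled TPM also ended the calls of IFNGR1, HDAC9, DUSP5, IL10RA and PTPN6 in this test (adjusted p = 0.0547 to 0.424). RUNX3 had -0.43 at 2 h and -0.45 at 4 h, a difference of -0.03 (SE 0.08, edgeR adjusted p = 0.888). CD69 had 1.05 and 0.83, a difference of -0.23 (SE 0.14, edgeR adjusted p = 0.329).

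**Figure D5:**
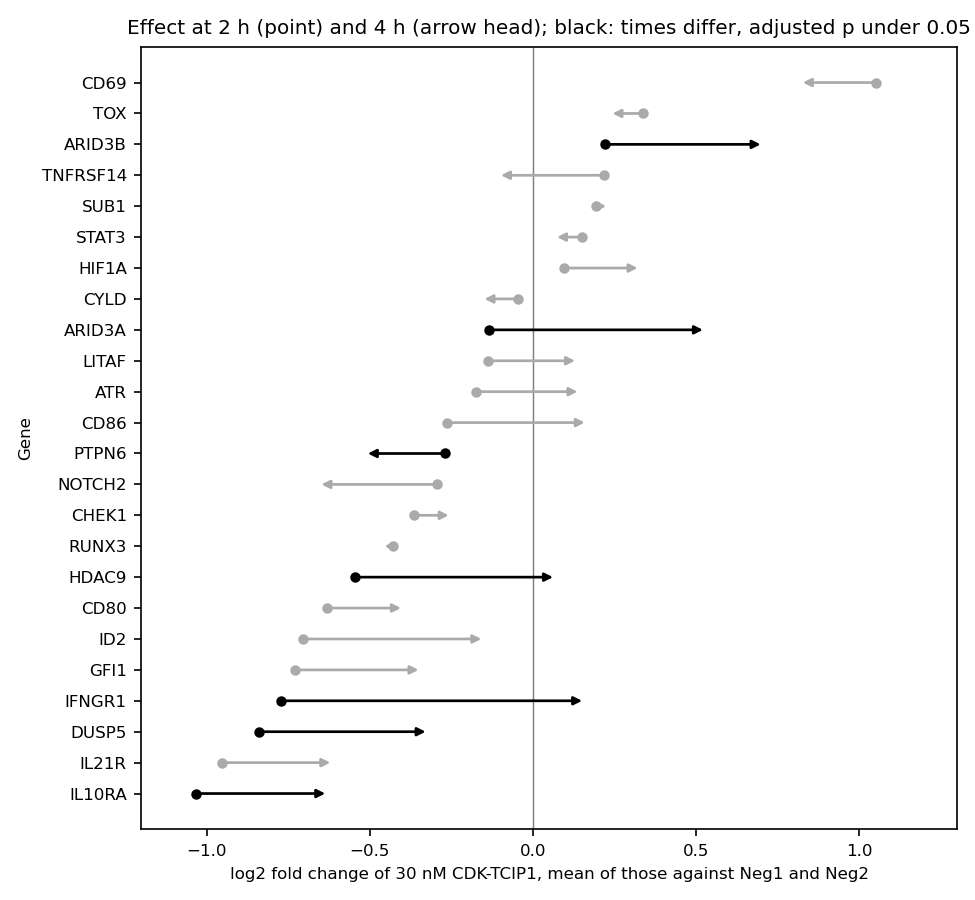
Log2 fold change of 30 nM CDK-TCIP1, as the mean of the values against Neg1 and Neg2, at 2 h (point) and 4 h (arrow head) for 24 genes, without PRDM1. Arrows are black for the 7 genes whose times differed at an adjusted p under 0.05, led by IFNGR1, which went from -0.77 to 0.15.

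Other genes of the pathway were read against the same background, the 10.5% of all tested genes that rose and the 13.7% that fell in all 3 comparisons at 4 h. Among further genes described as BCL6 targets, those named here are CDKN1A, CDKN1B and FOXO3, which rose in all 3, and BMF and IRF7, which fell. CDKN1B, an inhibitor of cyclin-dependent kinases, went from 34.1 to 101 CPM against DMSO (log2 difference 1.57, SE 0.09, edgeR adjusted p = 4.42e-13), a larger rise than that of any called gene of the 25 in that comparison. CDKN1A, another such inhibitor, fell by 0.40 at 2 h against Neg1 and rose by 0.42 at 4 h. Among 18 BCL6 corepressors, 1 rose in all 3 comparisons (BCOR; background 10.5%) and 7 fell (background 13.7%: HDAC2, KDM2B, MTA3, RCOR1, RING1, TBL1X and TBL1XR1). MTA3, a subunit of the NuRD complex, went from 170 to 103 CPM, and fell by 0.73 (SE 0.06, edgeR adjusted p = 2.86e-10) against DMSO. Of 8 tested genes that are high in plasma cells, 1 rose in all 3 (CD38, by 1.32 against DMSO, with a background of 10.5%) and 4 fell (background 13.7%: ELL2, JCHAIN, MZB1 and POU2AF1).

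The 7 genes too low to test were BATF, CD44, FCER2, CCL3, CCL4, SOCS2 and SOCS3. CCL3, an inflammatory chemokine, had 0 counts over the 23 libraries, which allows a level of up to 0.00632 CPM (3 counts of all libraries together, counting error only). CCL4 had 1 count, SOCS3 had 2 and FCER2, the low-affinity IgE receptor, had 3. BATF, a partner of IRF4 in B and T cells, had 13 counts and CD44, an adhesion receptor, had 31, with at most 0.155 and 0.317 CPM in a library. SOCS2, a brake on cytokine signals, had 76 counts and at most 0.492 CPM. A level of 3 counts in 1 library is 0.114 to 0.172 CPM. CCL3 and CCL4 have near-identical gene copies, which makes their counts uncertain. Changes in these 7 genes were not detectable at this depth.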

How the data were processed

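Poly(A) RNA of SUDHL5 cells was sequenced in 23 libraries. The submitters' processing notes name FastQC, cutadapt, kallisto and DESeq2. Tool versions, strand setting and transcript set: not given in the sources used here. For each library the authors deposited estimated counts and TPM for 227912 transcripts, of which 205964 matched GENCODE 29 (GRCh38) without version numbers. Those unmatched held 1.16 to 1.28% of counts and were left out. Estimated counts were summed per gene and rounded to whole numbers. An estimated count shares reads among transcripts, so overlapping genes and near-identical copies are less certain. The deposited TPM values, summed per gene, served for levels between genes and the length-scaled alternative.

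Genes passing filterByExpr (17743) were tested by edgeR's quasi-likelihood F test (edgeR 4.0.16, R 4.3.3) with TMM, in 1 fit of all 23 libraries with 14 residual degrees of freedom. P-values were adjusted by Benjamini-Hochberg over those 17743 genes. Called, risen or fallen means an adjusted p under 0.05. The SE is the size of the log2 fold change over the square root of F. CPM are counts scaled to library size after TMM. Common biological coefficient of variation was 0.0988. Data were simulated for 30 nM 4 h against DMSO over 17743 genes, with few genes changed and the common spread used for every gene. In them 48% of 1.5-fold and 83% of 3-fold changes were recovered. Recovery in the real data, where far more genes were called and the spread differs by gene, may be different. Replicate pairs differed by more than sampling noise (chi-square per degree of freedom 4.31 to 14.2).

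All 32 genes of the list, BCL6, and pathway genes called in all 3 comparisons at 4 h were named, except for results not reported here. The members and lists were chosen with earlier results of these data known. Alternatives were DESeq2 1.42.0, no filter, at least 10 counts in 3 libraries, only the groups compared, length-scaled TPM, protein-coding transcripts only, the replicate number as a block, leaving out each replicate and, added after seeing the data, leaving out 100 nM replicate 1 and Neg2 2 h replicate 1, and the comparison of 100 with 10 nM.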

Additional observations from a re-analysis of the deposited data

Results flagged for a closer look

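Values that stood out from the replicates of their group were found at 30 nM for 2 h, the one group with 4 libraries, where about 1 in 20 checks would be flagged by chance. GFI1 was lowest in replicate 2, at 15.5 CPM, while the other 3 libraries lay between 16.8 and 17.1 CPM. CD86 was highest in replicate 1, at 29.4 CPM, with the other 3 between 22.9 and 24.0 CPM.

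The effect of CDK-TCIP1 against Neg1 and Neg2 differed between 4 h and 2 h in 7 genes, by the edgeR test of the difference. On the log2 scale the 4 h effect minus the 2 h effect was 0.65 for ARID3A, 0.48 for ARID3B, 0.61 for HDAC9, 0.92 for IFNGR1, 0.40 for IL10RA, 0.51 for DUSP5 and -0.24 for PTPN6. With length-scaled TPM, ARID3B alone of these 7 kept its call. That of ARID3A lost its call without 30 nM 4 h replicate 1 (adjusted p = 0.0646). That of ARID3B lost its call without any of 4 single libraries and that of IL10RA without any of 2. That of PTPN6 (edgeR adjusted p = 0.0481) and that of DUSP5 (0.0278) lost their calls without most single libraries.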

How the results depend on the processing

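Of 144 calls of the 25 genes over 16 comparisons, 74 held in every fit run, including those of CD69, IL10RA and RUNX3 in all 5 comparisons of 30 nM with controls of the same time. Length-scaled TPM ended 54 calls and turned ARID3A's difference between 4 h and 2 h to -0.075 (adjusted p = 0.968); the cause was not tested. With it the number called was 9 of 25 at 2 h against Neg1, 4 at 10 nM against DMSO, 0 between 30 and 10 nM, 2 between 100 and 30 nM, 7 between 4 h and 2 h at 30 nM and 2 for the difference in effect. Without the low-count filter it was 6 between 30 and 10 nM, 1 for Neg1 and Neg2 over time and 2 for Neg2 against DMSO. Between 100 and 30 nM it was 3 with only the groups compared and 2 without the 2 libraries left out together. For these fits, and for those that leave out a replicate, the share of all genes called is not given. Whether all genes changed alike cannot be read from these numbers.

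Leaving out each replicate gave 4 to 7 at 10 nM against DMSO, 0 to 2 between 30 and 10 nM, 2 to 7 between 100 and 30 nM and 3 to 8 for the difference in effect. The replicate numbers did not pair the samples (correlations of same-numbered deviations from -0.04 to 0.04), and with the replicate number as a block 137 of the 144 calls held; CHEK1 lost 2 (2 h against Neg1 and 4 h against Neg2), HDAC9 and IL10RA lost those between 30 and 10 nM, and TOX (2 h against Neg1), ID2 (4 h against 2 h) and PTPN6 (difference in effect) lost 1 each. DESeq2 kept 143.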

Other observations

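The genes of the list that fell at 30 nM and 4 h against DMSO spanned a median of 49.9 kb and those that rose 52.7 kb. Over all tested genes the medians were 38.0 kb for those that fell and 22.9 kb for those that rose. At 2 h against Neg1, those that fell spanned 19.3 kb and all falling genes 30.9 kb.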
